A study of Mus musculus with 12 samples.

Results

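C-type lectin receptors are described here in mouse bone marrow-derived dendritic cells (BMDC) with and without the Arc/Arg3.1 gene. The members were a list of 10 named genes: Clec4e (Mincle), Clec4d (MCL), Clec4n (Dectin-2), Clec7a (Dectin-1), Clec5a, Clec4a2 (DCIR), Clec10a (MGL1), Cd209a, Mrc1 (the mannose receptor) and Clec9a. Of these, 9 were among the 22180 genes that could be tested. The only probe set of Clec9a also carries Clec1b, so its signal, 5.76 to 6.38 on a log2 scale over the 12 arrays, was assigned to neither gene. Arc/Arg3.1 is transcribed quickly after stimulation and is studied mostly in neurons, and the study asked what its loss does to dendritic cells, here at rest and after lipopolysaccharide (LPS), a bacterial cell wall component sensed by Tlr4.

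The 12 Affymetrix arrays fell into 4 groups of 3: Arc/Arg3.1 -/- cells with LPS, Arc/Arg3.1 -/- cells without LPS, wildtype cells with LPS and wildtype cells without LPS. All came from mice labelled C57BL/6, male and 8 weeks old, whose bone marrow was cultured in 20 ng/ml GM-CSF, with the semi-adherent cells harvested on day 7. The treated cells had LPS at 100 ng/ml for 30 min and the untreated cells had medium for the same time, and every culture then stood in medium for 1 h. Replicates are called biological, but no separate animals are stated, and a p-value here sets a difference against the spread of these cultures only.

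C-type lectin receptors bind sugars and lipids of microbes, or ligands of damaged and dead cells, through a lectin-like domain. Clec4e, Clec4d and Clec4n signal through the adaptor Fcer1g, Clec5a through Tyrobp, and Clec7a through its own cytoplasmic tail. All of them use the kinase Syk and the Card9, Bcl10 and Malt1 complex to switch on NF-kB. Clec4a2 carries an inhibitory motif, Clec10a, Cd209a and Mrc1 bind sugars for uptake, and Clec9a recognises actin of dead cells and marks cross-presenting dendritic cells.

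Median log2 signals lay between 6.50 and 6.67 on the 12 arrays. The Arc probe set read 7.68 to 8.03 in knockout cells with LPS and 7.81 to 8.05 in knockout cells without, against 9.21 to 9.62 and 9.24 to 9.47 in wildtype cells with and without LPS. Which stretch of the transcript it probes is not stated. Pairs of the 3 untreated wildtype arrays differed with an SD of 0.105 to 0.108, against 0.193 to 0.438 in other array pairs of a group, and were averaged and counted as 1 sample, which leaves 10 samples in the fit. All arrays were labelled male, yet Xist read 11.22 to 11.92 on 9 of them. On the other 3 (knockout with LPS 2, knockout untreated 2, wildtype with LPS 1) it read 5.63 to 5.76 and Y-linked genes gave a signal. On 4 arrays with LPS (replicates 2 and 3 of each genotype) the median of 78 small nucleolar RNA genes was 9.73 to 9.87, against 10.44 to 11.04 on the remaining 8. Values without these arrays are given where they change a call. Leaving out the 4 arrays keeps only replicate 1 with LPS in each genotype, so those values describe that replicate.

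The promoters of 4 members are shown: Clec4e and Clec7a, which rose after LPS in knockout cells, Clec4a2, which fell, and Clec4d, the partner of Clec4e. Each run gives the 250 bases before the RefSeq transcription start (GRCm38.p6), 5′ to 3′ on the gene's own strand. The windows are chr6:123289872-123290121 (minus strand) for Clec4e, chr6:123261857-123262106 (plus strand) for Clec4d, chr6:129472786-129473035 (minus strand) for Clec7a and chr6:123122440-123122689 (plus strand) for Clec4a2. Capitals mark matches, on either strand, to 1 of 6 motifs: NF-kB (GGGA, any 4 bases, CC), AP-1 (TGANTCA), C/EBP (TTGCNNAA), PU.1 (GAGGAA), CRE (TGACGTCA) and an interferon response element (GAAA, any 2 bases, GAAA).
Clec4e: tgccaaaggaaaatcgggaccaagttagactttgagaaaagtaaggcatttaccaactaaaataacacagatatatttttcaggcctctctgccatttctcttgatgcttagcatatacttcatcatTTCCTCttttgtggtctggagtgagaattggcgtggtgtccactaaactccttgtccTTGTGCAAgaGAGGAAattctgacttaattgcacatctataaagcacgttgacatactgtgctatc
Clec4d: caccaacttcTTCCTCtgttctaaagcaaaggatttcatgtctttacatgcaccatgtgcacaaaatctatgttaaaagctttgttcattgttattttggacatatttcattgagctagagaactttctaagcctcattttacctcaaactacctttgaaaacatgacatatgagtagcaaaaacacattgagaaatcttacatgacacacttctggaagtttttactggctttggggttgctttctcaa
Clec7a: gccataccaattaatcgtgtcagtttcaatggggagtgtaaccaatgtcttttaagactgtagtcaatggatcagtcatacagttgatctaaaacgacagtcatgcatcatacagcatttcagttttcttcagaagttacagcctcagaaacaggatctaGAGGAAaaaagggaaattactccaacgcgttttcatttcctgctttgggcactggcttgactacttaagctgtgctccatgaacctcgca
Clec4a2: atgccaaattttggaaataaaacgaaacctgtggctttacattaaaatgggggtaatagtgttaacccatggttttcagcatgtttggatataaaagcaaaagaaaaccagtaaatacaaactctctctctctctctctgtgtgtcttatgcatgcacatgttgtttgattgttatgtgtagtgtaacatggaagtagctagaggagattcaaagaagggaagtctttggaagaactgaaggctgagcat
The Clec4e window held 1 C/EBP match, 66 to 59 bases before the start, and PU.1 matches at 123 to 118 and 56 to 51 bases before it. Clec4d had 1 PU.1 match at 240 to 235 bases and Clec7a had 1 at 90 to 85 bases. None of the 6 motifs was found in the Clec4a2 window. A second annotated Clec7a start lies 6 bases away, so the genes of the list had 9 windows over 8 genes. Among these, 6 of 9 windows held the PU.1 letters and 1 of 9 held C/EBP, against 23.3% and 9.56% of 32851 windows of all genes. The 2 Clec7a windows hold the same PU.1 match, which is counted in each. NF-kB letters stood in 1 of 9 (Mrc1) against 17.6% of all windows. AP-1, CRE and the interferon element were in 0 of 9, against 6.75%, 1.55% and 2.98%. No 2 of the printed matches overlap, and a match is a run of letters and no evidence of binding.

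The first comparison asks which receptors changed after LPS in each genotype. Clec4e, the receptor for mycobacterial cord factor and for a ligand released by dead cells, rose 4.79-fold in knockout cells and 4.30-fold in wildtype cells. Clec7a, the receptor for fungal beta-glucan, rose 1.61-fold in knockout cells, and Clec4a2, the inhibitory member, fell there. The measured fold of Clec4a2, 2.21, comes from signals that lay below the 90th percentile of probe sets without a gene on all 12 arrays. In wildtype cells Clec7a and Clec4a2 had differences of the same sign that did not pass the test. Thus 3 of 9 members passed in knockout cells, where 5.91% of all genes did (2.98% higher, 2.93% lower), and 1 of 9 in wildtype cells, where 1.57% did (1.34% higher, 0.234% lower). With the 12 arrays as 12 samples, 4 of 9 passed in knockout cells (9.11% of all genes) and 3 of 9 in wildtype cells (8.64%). The counts rested partly on single arrays: without untreated knockout replicate 3, 1 of 9 passed in knockout cells (2.96% of all genes), and without LPS knockout replicate 2, 5 passed in knockout (7.52%) and 2 in wildtype cells (2.01%). In these settings the counts over all genes moved in the same direction as those of the members, but this did not hold in every setting. Without the 3 arrays of Y-linked signal 5 of 9 passed in knockout cells, while calls over all 22180 genes fell from 1311 to 980. With a term for low small nucleolar RNA signal 4 passed there, with 1250 calls over all genes. The median log2 change of the 9 was -0.27 in knockout and -0.28 in wildtype cells, and the median over all genes was within 0.01 of 0 in each. Calls are limma tests with Benjamini-Hochberg adjustment over 22180 genes at a threshold of 0.05. RNA of a whole culture was measured, in which fewer cells of a type and less RNA per cell cannot be told apart.

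**Figure D1:**
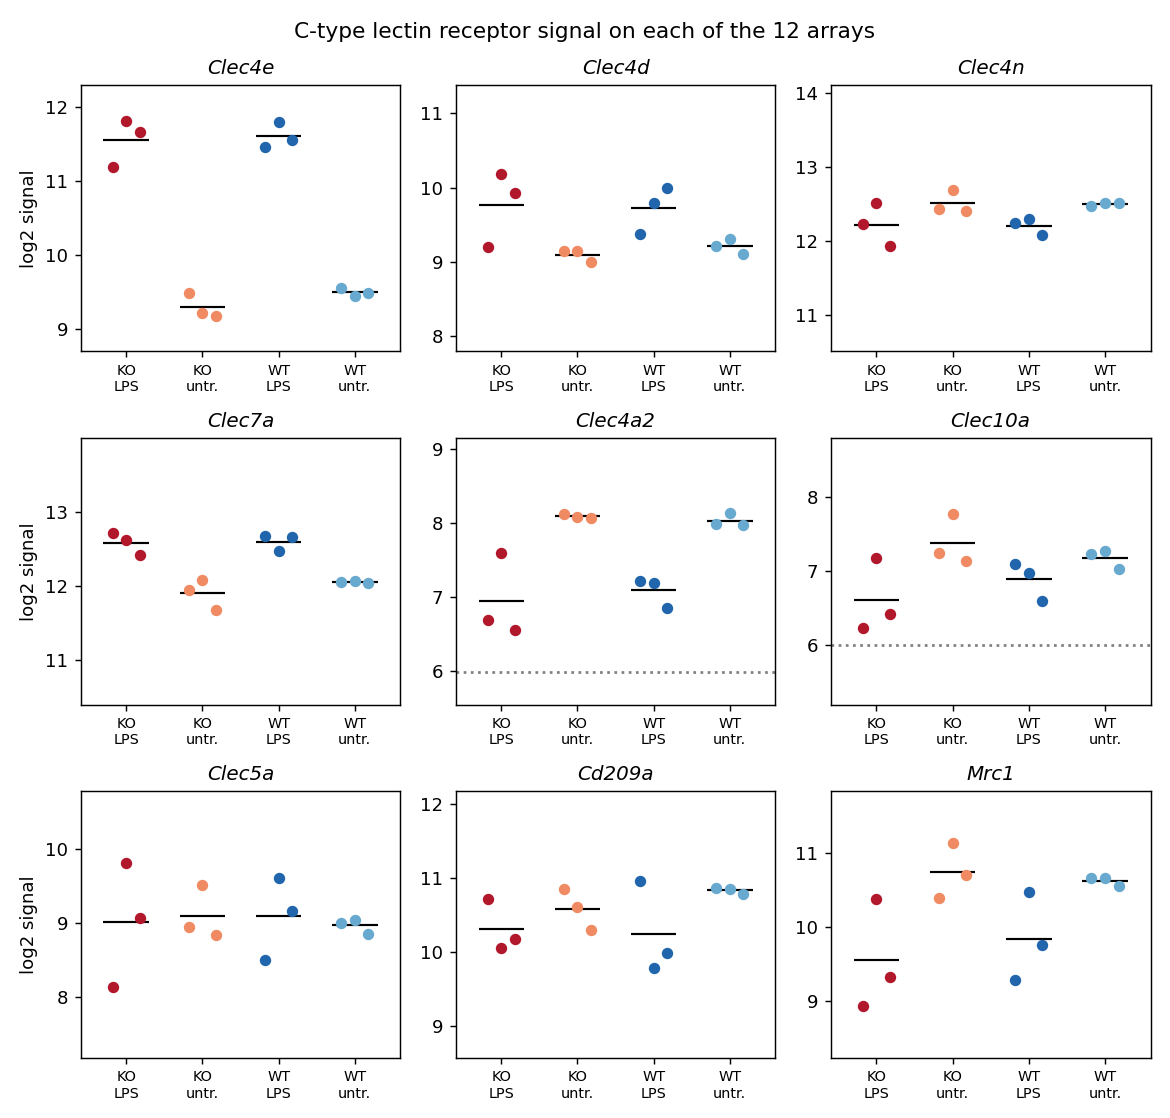
Log2 signal (vertical axis) of the 9 measured receptors on each of the 12 arrays. Points are arrays and bars are group means. The dotted line, which falls inside the panels of Clec4a2 and Clec10a only, is the median signal of probe sets without a gene, averaged over arrays. Panels span the same number of log2 units but start at different levels, and the LPS arrays of both genotypes stand clear above the untreated ones for Clec4e and below them for Clec4a2.

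Clec4e read 11.18, 11.81 and 11.66 in knockout cells with LPS and 9.48, 9.21 and 9.18 in knockout cells without. It read 11.45, 11.80 and 11.56 in wildtype cells with LPS and 9.56, 9.45 and 9.48 without. All 6 LPS arrays lay above all 6 untreated arrays by more than 1 log2 unit, and the genotypes overlapped within each treatment. The log2 change was 2.26 in knockout cells (SE 0.17, 95% interval 1.89 to 2.63, limma adjusted p = 3.62e-05) and 2.10 in wildtype cells (SE 0.24, interval 1.58 to 2.63, adjusted p = 0.00144). Over every alternative setting run the value stayed between 1.89 and 2.45 in knockout cells and between 1.84 and 2.18 in wildtype cells. The fit without the 4 arrays of low small nucleolar RNA signal keeps 1 LPS array per genotype. In the other settings the limma adjusted p was at most 0.00204 in knockout and 0.00891 in wildtype cells.

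Clec4d forms a complex with Clec4e and shares its ligands. Its signal was 9.20, 10.18 and 9.93 in knockout cells with LPS, against 9.14, 9.15 and 9.0 without. In wildtype cells it was 9.37, 9.80 and 10.00 with LPS, against 9.21, 9.30 and 9.10 without. The groups did not overlap in either genotype, but replicate 1 with LPS exceeded the highest untreated array by less than 0.1 in both. The log2 difference was 0.68 in knockout cells (SE 0.23, 95% interval 0.17 to 1.19, limma adjusted p = 0.125) and 0.52 in wildtype cells (SE 0.33, adjusted p = 0.741), and neither passed the test. Without knockout replicate 1 with LPS the knockout value was 0.96 with a limma adjusted p of 0.0142. With a term for low small nucleolar RNA signal it was 0.22 with an adjusted p of 0.424. These are the ends of the adjusted p over the alternatives that keep more than 1 LPS array per genotype. Without the 4 arrays of low small nucleolar RNA signal, which leaves LPS replicate 1 alone, the value was 0.11.

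Clec4n, which binds fungal mannans, gave 12.22, 12.51 and 11.93 in knockout cells with LPS and 12.44, 12.69 and 12.41 without. Wildtype cells gave 12.24, 12.29 and 12.09 with LPS and 12.48, 12.51 and 12.51 without. The knockout groups overlapped and the wildtype LPS arrays lay below the untreated ones. The log2 difference was -0.29 in each genotype (SE 0.15 in knockout, 0.21 in wildtype), with limma adjusted p-values of 0.315 in knockout and 0.811 in wildtype cells. The 3 receptors that share Fcer1g thus had 1 call in each genotype, that of Clec4e.

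Clec7a read 12.72, 12.62 and 12.42 in knockout cells with LPS, against 11.94, 12.08 and 11.68 without. In wildtype cells the values were 12.67, 12.47 and 12.66 with LPS, against 12.06, 12.07 and 12.04 without. Every LPS array lay above every untreated array in both genotypes. The knockout change was 0.69 log2 units (SE 0.13, 95% interval 0.39 to 0.98, limma adjusted p = 0.0122). The wildtype difference was 0.55 (SE 0.19, interval 0.14 to 0.96) with an adjusted p of 0.269, which became 0.0115 with the untreated arrays as 3 samples. The knockout call was lost without untreated knockout replicate 3 (0.57, limma adjusted p = 0.0555). Without the 4 arrays of low small nucleolar RNA signal, which leaves LPS replicate 1 alone, the value was 0.82. Adjusted p-values ranged from 0.00291 to 0.0555 over the other alternatives.

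Clec5a, which pairs with Tyrobp and is known as a receptor for flaviviruses, varied more between replicates than between groups. Its signal was 8.14, 9.82 and 9.06 in knockout cells with LPS and 8.95, 9.52 and 8.83 without. Wildtype cells had 8.50, 9.61 and 9.17 with LPS and 9.01, 9.04 and 8.86 without. In both genotypes the LPS arrays spread on either side of the untreated ones. The log2 difference was -0.09 in knockout cells (95% interval -0.95 to 0.77, limma adjusted p = 0.930) and 0.12 in wildtype cells (interval -1.10 to 1.34, adjusted p = 0.992), so a change of 0.77 log2 units in either direction lies within both intervals. The knockout value ran from -0.82 with a term for low small nucleolar RNA signal to 0.34 without LPS knockout replicate 1 (-0.50 without LPS knockout replicate 2). It passed in none of the settings that keep more than 1 LPS array per genotype (limma adjusted p 0.131 to 0.973). Without the 4 arrays of low small nucleolar RNA signal, which leaves LPS replicate 1 alone, it was -0.96.

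Clec4a2 gave 6.69, 7.60 and 6.56 in knockout cells with LPS, against 8.12, 8.09 and 8.07 without. Wildtype cells gave 7.22, 7.20 and 6.86 with LPS, against 7.99, 8.14 and 7.98 without. Every LPS array was lower than every untreated array, with knockout replicate 2 the highest of the LPS arrays. All 12 values lay below 8.28, the mean over arrays of the 90th percentile of probe sets without a gene. The knockout change was -1.14 log2 units (SE 0.23, 95% interval -1.65 to -0.64, limma adjusted p = 0.0152). The wildtype difference was -0.94 (SE 0.32, interval -1.66 to -0.23) with an adjusted p of 0.275, or 0.0138 with 12 samples. The wildtype value also passed without the 3 arrays of Y-linked signal (-1.01, adjusted p = 0.0359) and without LPS knockout replicate 2, which enters through the shared spread (adjusted p = 0.0195), in a range of 0.00633 to 0.529. The knockout call was lost, with adjusted p-values of 0.0507 to 0.0672, when untreated knockout replicate 1, 2 or 3 or LPS knockout replicate 1 or 3 was left out. Its value ranged from -1.47 to -0.95 and its adjusted p from 0.000322 to 0.0672 over all alternatives.

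**Figure D2:**
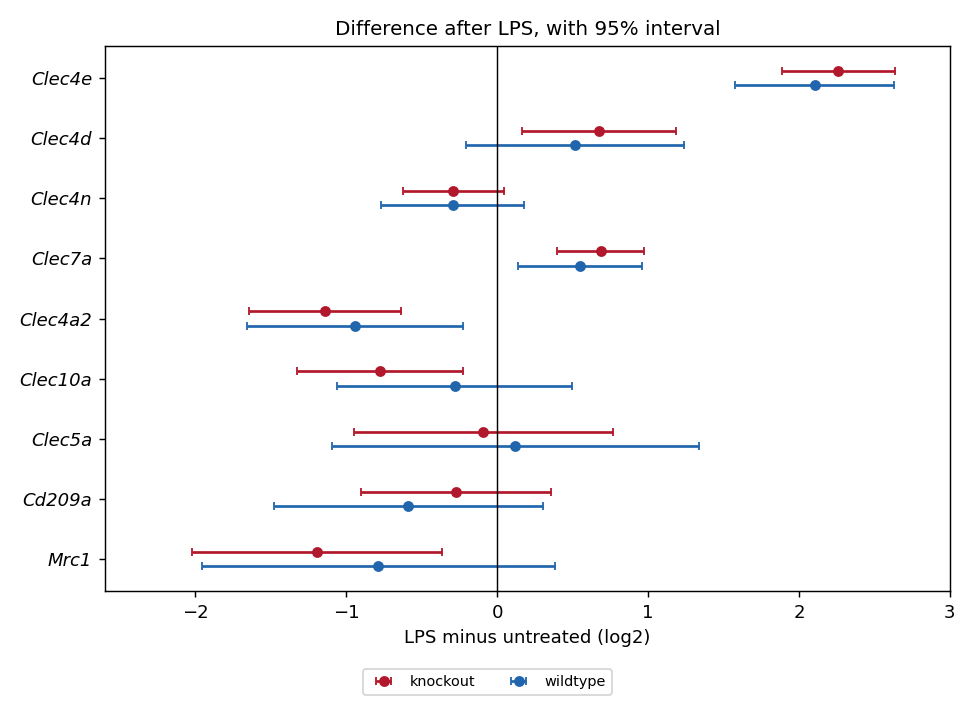
Log2 change with LPS against no LPS (horizontal axis) for the 9 receptors, knockout above wildtype, with 95% intervals from limma. The intervals of Clec4e lie furthest above 0 in both genotypes, and those of Clec4n, Clec5a and Cd209a span 0 in both.

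Mrc1, an uptake receptor for mannose-bearing proteins, read 8.93, 10.38 and 9.33 in knockout cells with LPS, against 10.39, 11.13 and 10.70 without. In wildtype cells it read 9.28, 10.47 and 9.75 with LPS, against 10.66, 10.66 and 10.55 without. The LPS arrays were lower in both genotypes, yet replicate 2 came within 0.1 of the lowest untreated array in each. The log2 difference was -1.19 in knockout cells (SE 0.37, 95% interval -2.02 to -0.37, limma adjusted p = 0.0951) and -0.79 in wildtype cells (SE 0.53, interval -1.96 to 0.38, adjusted p = 0.772). The knockout value passed the test without LPS knockout replicate 2 (-1.61, adjusted p = 0.0176). It also passed without the 3 arrays of Y-linked signal (-1.42, limma adjusted p = 0.0232). Without the 4 arrays of low small nucleolar RNA signal, which leaves LPS replicate 1 alone, the knockout value was -1.81. Its adjusted p ranged from 0.000958 to 0.266 over the alternatives.

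Clec10a, a galactose-binding receptor, gave 6.22, 7.17 and 6.41 in knockout cells with LPS and 7.24, 7.76 and 7.13 without. Wildtype cells gave 7.10, 6.97 and 6.59 with LPS and 7.23, 7.26 and 7.02 without. The groups overlapped in both genotypes, and all 12 values lay below the 90th percentile of probe sets without a gene on their array. The log2 difference was -0.78 in knockout cells (SE 0.25, 95% interval -1.33 to -0.23, limma adjusted p = 0.103) and -0.28 in wildtype cells (SE 0.35, adjusted p = 0.950). Without LPS knockout replicate 2 the knockout value was -1.06 with an adjusted p of 0.0157, and without the 3 arrays of Y-linked signal it was -0.87 with 0.0260, in a range of 0.0143 to 0.293.

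Cd209a, a mouse relative of human DC-SIGN, gave 10.71, 10.06 and 10.17 in knockout cells with LPS and 10.85, 10.61 and 10.30 without. Wildtype cells gave 10.95, 9.79 and 9.98 with LPS and 10.86, 10.86 and 10.78 without. Replicate 1 with LPS was as high as the untreated arrays in both genotypes and replicates 2 and 3 were lower. The log2 difference was -0.27 in knockout cells (SE 0.29, limma adjusted p = 0.652) and -0.59 in wildtype cells (SE 0.40, 95% interval -1.48 to 0.30, adjusted p = 0.780). Over the alternatives the knockout value ran from -0.47 without LPS knockout replicate 1 to 0.28 with a term for low small nucleolar RNA signal, and passed in none (adjusted p 0.317 to 0.874). A second Cd209a probe set ordered the LPS arrays otherwise: it read 8.71, 10.67 and 9.26 in knockout cells with LPS and 9.46, 10.59 and 9.55 without, and 9.58, 9.77 and 9.47 in wildtype cells with LPS and 9.73, 9.61 and 9.67 without. Its differences were -0.32 in knockout and -0.06 in wildtype cells, with adjusted p-values of 0.775 and 0.996.

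Across the list, the LPS and untreated arrays did not overlap for 5 of 9 members in knockout cells (3 higher, 2 lower), where 25.1% of all genes did not (10.3% higher, 14.8% lower). In wildtype cells this held for 6 of 9 (3 higher, 3 lower), against 30.2% of all genes (16.2% higher, 13.9% lower). The wildtype counts take the untreated arrays as 3, and their small spread makes a lack of overlap easier to reach. Knockout cultures with and without LPS were also taken as pairs by replicate number. The labels do not state this pairing, and it was not tested against arrays of different number. Within the pairs, Clec4e was higher with LPS by 1.70, 2.60 and 2.48 log2 units in replicates 1, 2 and 3, and Clec7a by 0.77, 0.54 and 0.74. Mrc1 differed by -1.46, -0.75 and -1.37, Clec4a2 by -1.43, -0.49 and -1.51 and Clec10a by -1.02, -0.59 and -0.72. The difference had the same sign in all 3 pairs for 8 of 9 members, Clec5a (-0.80, 0.30 and 0.23) being the exception. With the replicate number as a block on the 9 arrays other than untreated wildtype, 6 of 9 members passed, against 10.4% of all genes. Calls were added for Mrc1 (limma adjusted p = 0.000958), Clec10a (0.0211) and Clec4d (0.0440), beside Clec4e (6.58e-05), Clec4a2 (0.00610) and Clec7a (0.00862).

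**Figure D3:**
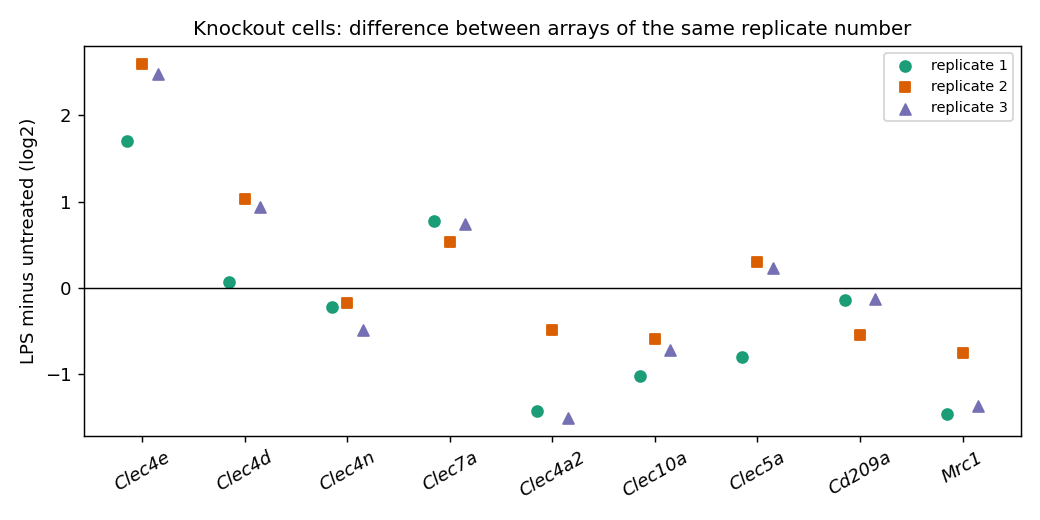
LPS minus untreated log2 signal (vertical axis) in knockout cells for each receptor, 1 point per replicate number. All 3 points of Clec4e lie above 1.5, and those of Mrc1, Clec4a2 and Clec10a lie below 0 with replicate 2 nearest to it.

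The second comparison asks whether Arc/Arg3.1 loss altered receptor levels or their LPS response. By limma, 0 of 9 members passed in knockout against wildtype cells after LPS, where 0.00902% of all genes did, and 0 of 9 passed without LPS, where 0.00451% did. None reached an unadjusted p under 0.05 in either comparison or in the interaction, where 0% of all genes passed. With 12 samples 0 members passed, with a lowest adjusted p of 0.526 without LPS (0.437% of all genes passed) and 0.590 for the interaction (0.248%). After LPS the log2 differences ran from -0.29 to 0.07, with 95% intervals between -1.11 and 0.78, and untreated they ran from -0.25 to 0.21, with intervals between -1.14 and 1.35. The knockout and wildtype arrays overlapped for 9 of 9 members with and without LPS, while 7.78% of all genes with LPS and 29.3% without were free of overlap. The share without LPS again takes the close untreated wildtype arrays as 3. LPS cultures of both genotypes were also taken as pairs by replicate number, which the labels do not state. In pairs 1 and 2 a culture with Y-linked signal stood against a culture with high Xist signal. Within these pairs Mrc1 was lower in knockout cells in all 3 (-0.35, -0.09 and -0.42), while the other 8 members differed in sign between pairs. With the replicate block on 9 arrays 0 of 9 passed after LPS, Mrc1 having the lowest adjusted p (-0.29, SE 0.14, limma adjusted p = 0.838).

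The intervals show how small a genotype difference could have been seen. After LPS, knockout minus wildtype was -0.05 for Clec4e (interval -0.42 to 0.32), -0.01 for Clec7a (-0.30 to 0.28) and 0.01 for Clec4n (-0.32 to 0.35). The LPS change in knockout minus that in wildtype cells was 0.16 for Clec4e (-0.49 to 0.80) and 0.14 for Clec7a (-0.37 to 0.64). Over the 9 members this interaction ran from -0.50 to 0.32, with intervals between -1.84 and 1.41 and limma adjusted p-values of 0.948 to 0.999. For the members with the widest spread, a genotype effect of more than 1 log2 unit on the response was within the error. The 0 calls do not show that the genotypes were equal.

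**Figure D4:**
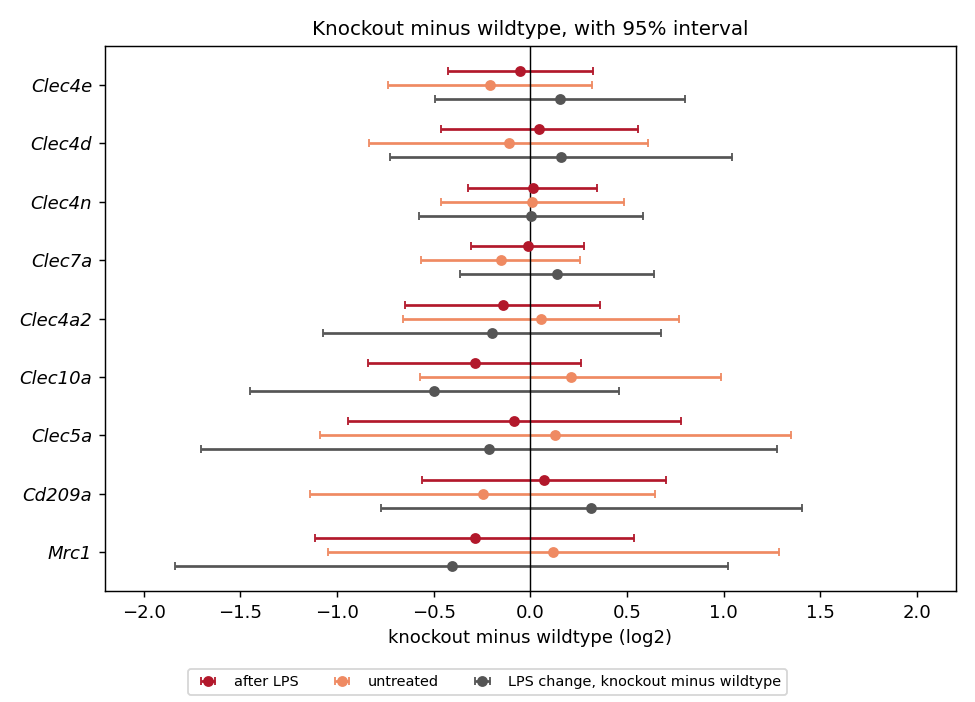
Knockout minus wildtype log2 difference (horizontal axis) after LPS, without LPS, and for the LPS change itself, with 95% intervals from limma for the 9 receptors. All intervals span 0, and those of Clec4e, Clec7a and Clec4n are narrower than those of Clec5a and Mrc1.

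Clec4e, Clec4d, Clec4n and Clec4a2 belong to a run of 9 neighbouring genes on mouse chromosome 6, in the order Clec4a1, Clec4a3, Clec4a4, Clec4b1, Clec4a2, Clec4b2, Clec4n, Clec4d and Clec4e. In knockout cells their log2 differences with LPS were -0.26, -1.17, -0.25, -1.17, -1.14, -0.44, -0.29, 0.68 and 2.26 in that order. In wildtype cells they were -0.78, -1.08, -0.36, -0.56, -0.94, -0.61, -0.29, 0.52 and 2.10. The first 7 were negative and the last 2, Clec4d and Clec4e, positive in both genotypes, a pattern described after the values were seen. Several of the negative values come from low signals. All group means of Clec4a4 (7.02 to 7.42), Clec4b1 (7.09 to 8.26), Clec4a2 (6.95 to 8.09) and Clec4b2 (6.14 to 6.75) lay below 8.28. That level is the mean 90th percentile of probe sets without a gene, and Clec4a3 was below it in knockout cells with LPS (8.24). Besides Clec4e and Clec4a2, Clec4a3, which like Clec4a2 belongs to the DCIR group, fell in knockout cells (SE 0.27, limma adjusted p = 0.0271), and the other 6 passed in neither genotype. With 12 samples Clec4b1 also passed in knockout cells (adjusted p = 0.0271), and Clec4a3 (0.0142), Clec4a2 (0.0138) and Clec4b2 (0.0467) in wildtype cells. The Clec4a and Clec4b genes are close copies, and how far their probes bind each other's transcripts was not tested.

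**Figure D5:**
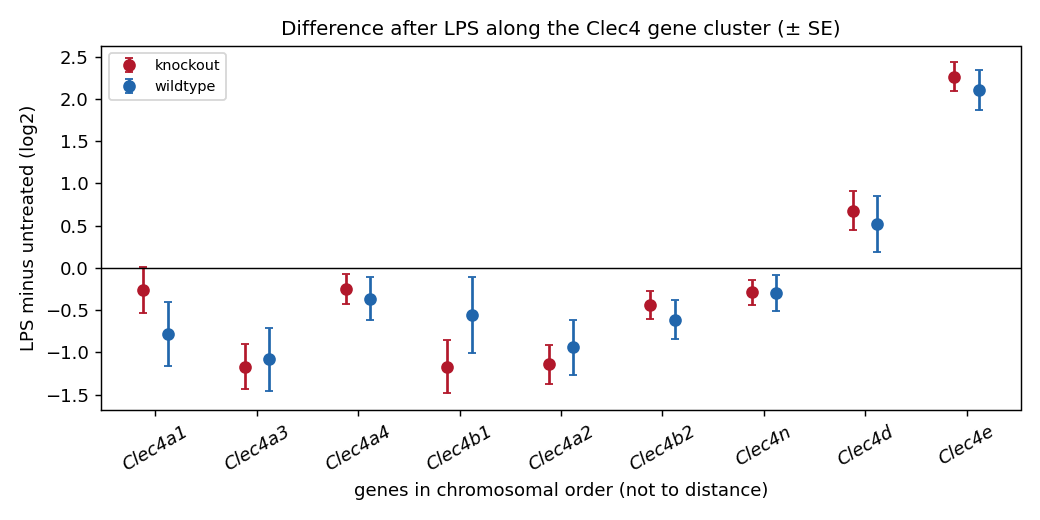
Log2 change with LPS (vertical axis, mean and SE from limma) of 9 neighbouring Clec4 genes in chromosomal order, knockout and wildtype side by side. The values are below 0 from Clec4a1 to Clec4n and above 0 for Clec4d and Clec4e in both genotypes.

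Among 32 other C-type lectin receptors, 30 were measured, and 2 rose and 2 fell in knockout cells while 1 rose in wildtype cells, with medians of -0.10 and -0.14. Olr1, the receptor for oxidised low-density lipoprotein, rose by 1.77 in knockout cells (SE 0.19, limma adjusted p = 0.000431) and by 1.66 in wildtype cells (SE 0.27, adjusted p = 0.0137). Cd69, an early activation marker, rose by 1.46 in knockout cells (adjusted p = 0.0180). Clec2i, a ligand of natural killer cell receptors, fell there (-0.94, adjusted p = 0.00137).

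Of 26 adaptors and members of the pathway through Syk to Card9, 23 were measured, of which 3 rose and 1 fell in knockout cells and 2 rose in wildtype cells. Malt1, the protease of the Card9 complex, rose by 0.96 in knockout and 1.01 in wildtype cells (limma adjusted p = 0.000643 and 0.0105), and Bcl10, its partner, by 0.57 and 0.79 (0.00865 and 0.0256). Traf6, a ubiquitin ligase upstream of NF-kB, rose by 0.48 in knockout cells and Rubcn, which acts in phagocytosis, fell by 0.64 (0.0253 and 0.0171). The receptors' own partners passed in neither genotype: the difference was -0.11 in knockout and 0.14 in wildtype cells for Fcer1g, and -0.57 and -0.53 for Tyrobp. Syk had 0.26 and 0.50, and Card9 had -0.30 and -0.23.

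All 9 listed inhibitory phosphatases and adaptors were measured, and 2 rose in knockout cells, Dusp5 by 0.93 and Ubash3b by 0.47, and 1 in wildtype cells, Dusp5 by 1.14. Of 17 measured transcription factors of myeloid receptor genes, 3 rose in knockout and 2 in wildtype cells: Nr4a1 by 3.41 in knockout and 3.38 in wildtype, Rel by 0.68 and 0.71, and Irf4 by 0.58 in knockout cells. Cebpb, which encodes a C/EBP factor, had 0.28 in knockout (limma adjusted p = 0.393) and 0.54 in wildtype cells (0.491). Of 14 cytokines and other outputs of these receptors, which LPS also induces through Tlr4, 12 rose in each genotype. Ptgs2 rose by 5.69 in knockout and 5.44 in wildtype cells, Cxcl2 by 4.52 and 4.0, Il23a by 4.31 and 4.07 and Tnf by 3.99 and 4.36. No gene of these 5 lists passed in either comparison of the genotypes.

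Markers of the cells in culture moved with some of these values. H2-Ab1, a class II antigen-presenting molecule, read 13.40 to 13.49 and Itgax (CD11c) 10.74 to 11.05 over the 4 group means, and the mean of 6 conventional dendritic cell markers was 10.35 to 10.53 in knockout cells with LPS and 10.43 to 10.61 without, against 10.42 to 10.52 and 10.33 to 10.44 in wildtype cells. Of these 6, Zbtb46, a transcription factor of conventional dendritic cells, rose by 0.67 in knockout and 0.88 in wildtype cells (limma adjusted p = 0.00378 and 0.0145). Flt3, a growth factor receptor, averaged below the background 90th percentile in the LPS groups only, at 8.16 in knockout and 7.94 in wildtype cells with LPS, against 8.55 and 8.35 without; it passed in neither genotype. Of 5 cDC1 markers, 4 lay below the 90th percentile of probe sets without a gene in each group. The mean of 5 monocyte markers was 8.22 to 8.71 in knockout cells with LPS and 9.50 to 9.63 without, and 8.39 to 8.79 in wildtype cells with LPS and 9.61 to 9.75 without. Of these 5, 3 fell in knockout cells (log2 change -1.78 for Ccr2, -1.48 for Chil3 and -0.94 for Ms4a6c) and 1 in wildtype cells (-1.54 for Ccr2). Over all genes 2.93% fell in knockout cells and 0.234% in wildtype cells. In both genotypes 2 of the 5 averaged below the background 90th percentile with LPS and 1 without. The mean of 9 neutrophil markers was 7.45 to 7.78 in knockout cells with LPS and 8.38 to 8.82 without, and 7.22 to 8.15 in wildtype cells with LPS and 8.78 to 8.86 without. Of these, 5 fell in knockout and 1 in wildtype cells, and in both genotypes 7 averaged below the background 90th percentile with LPS and 4 without. The mean of 4 eosinophil markers was 6.14 to 6.47 in knockout cells with LPS and 6.46 to 6.74 without, and 6.16 to 6.44 in wildtype cells with LPS and 6.69 to 6.81 without. All 4 averaged below the background 90th percentile in each group, and 1, Prg2, a granule protein, fell in both genotypes. The monocyte and neutrophil lists were lower with LPS in both genotypes, as Clec4a2 and Mrc1 were, and the eosinophil list without overlap in wildtype cells. The part of these lists in the receptors' values was not tested.

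Of 7 measured macrophage markers none passed in the LPS comparisons. Their mean was 9.23, 10.14 and 9.61 in knockout cells with LPS, replicates 1 to 3, and 9.86, 10.14 and 9.97 without. Over the 3 knockout LPS arrays Mrc1, Clec10a, Clec5a, Clec4e and Clec4d stood in the same order, with replicate 1 lowest and replicate 2 highest. The other members did not: Clec4n and Clec4a2 had replicate 3 lowest, and Clec7a and the Cd209a probe set used had replicate 1 highest. In wildtype cells the macrophage mean was 9.84, 9.80 and 9.74 with LPS and 10.01 to 10.04 without. There replicate 1 was the highest for the macrophage mean and for Clec10a, and the lowest for Mrc1, Clec5a, Clec4e and Clec4d. Its part in the values of these receptors was not tested. Markers of T cells, B cells and stromal cells had means of 5.60 to 6.56, near the median signal of gene-less probe sets (5.89 to 6.10).

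For the 3 called members, the genes with the nearest pattern were taken over the 4 group means, each centred on its own mean, from 18823 candidates. Nearest to Clec4e were Dusp2, Hspa1b and Lrrc32, with root mean square differences of 0.025, 0.082 and 0.084 log2 units. Nearest to Clec7a were Adhfe1 (0.014), Dthd1 (0.016) and Sipa1l2 (0.025), and nearest to Clec4a2 were Tnfaip8l2 (0.015), P2ry6 (0.057) and Clec4a3 (0.059). With only 4 points per gene this is a description of group means.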

How the data were processed

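Signals of 12 arrays were deposited by the authors as log2 values, already normalized, by steps not given in the sources used here; per the submitters' processing notes limma was used (no version given). The platform annotation paired 23521 of 34390 probe sets with 1 gene, 1814 with several and 9055 with none; the probe set with the highest mean stood for a gene, which left 22180 genes.

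Tests were two-sided in limma 3.58.1 (R 4.3.3): a group-means model in lmFit, 5 contrasts (the LPS change of either genotype, knockout against wildtype with and without LPS, and the interaction), eBayes, Benjamini-Hochberg adjustment over all genes and a threshold of 0.05. The 3 untreated wildtype arrays were averaged (10 samples, 6 residual degrees of freedom), and a fit with 12 samples is given beside it. The averaged sample adds nothing to the estimate of spread, which comes from the other groups. There were 26 alternative settings. The fit was checked on simulated data. On arrays, their number limits the precision.

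Deviations from group means were correlated between arrays of the same replicate number. The correlations were 0.381, 0.299 and 0.196 between knockout cells with and without LPS, and 0.338, 0.358 and 0.228 between knockout and wildtype cells with LPS. They were -0.028, 0.009 and -0.017 between wildtype cells with and without LPS. Between knockout cells without LPS and wildtype cells with LPS they were 0.145, 0.196 and 0.175. The numbers were treated as pairs on the 9 arrays other than untreated wildtype, although the labels state no shared animal or batch. These correlations alone cannot show that the number matters. Arrays of different number were not compared, and the part of the low small nucleolar RNA signal in these correlations was not tested.

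Members, lists and tests were chosen with earlier results of these data known. Named genes were all members and Arc, up to 4 called genes of each list with the largest change in an LPS comparison (or the 2 of lowest p), and the 3 nearest in pattern to each called member; the named cell type markers, Fcer1g, Tyrobp, Syk, Card9, Cebpb and the Clec4 neighbours were added after their values were seen. Sequences are RefSeq's (GRCm38.p6), matched by symbol for 8 of 10 genes; the order of the Clec4 genes comes from the same assembly.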

Additional observations from a re-analysis of the deposited data

How the results depend on the processing

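Clec4e passed the test in both genotypes under every setting that kept more than 1 LPS array per genotype, and none of the 9 receptors changed sign while called. In knockout cells 3 receptors passed. The count was 6 with the replicate block on 9 arrays, 6 with 12 samples and the replicate block, 5 with a random replicate block, and 5 without the 3 arrays of Y-linked signal, a setting chosen after seeing the data; leaving out 1 array gave 1 to 5. In wildtype cells 1 passed, against 3 with 12 samples, 4 with 12 samples and the replicate block and 2 without the arrays of Y-linked signal, and leaving out 1 array gave 1 to 2. The genotype and interaction counts were 0 in every setting. Over all genes, LPS in knockout cells gave 1311 calls, against 2021 with 12 samples, 2539 with their replicate block, 2312 with the block on 9 arrays and 2055 with a random block. Without the 3 arrays of Y-linked signal it gave 980, fewer than in the main fit, although more members passed. Leaving out untreated knockout replicate 1, 2 or 3 gave 737, 764 or 657, and leaving out LPS knockout replicate 3 gave 615. LPS in wildtype cells gave 349, against 1917 with 12 samples, 2437 with their block and 196 with only the groups compared. Without LPS wildtype replicate 3 it gave 184 and without LPS knockout replicate 3 it gave 231. The fit without the 4 arrays of low small nucleolar RNA signal was also chosen later. It keeps 1 LPS array per genotype, so its calls are not counted here. Without the arrays of Y-linked signal, LPS in wildtype cells gave 447. Knockout against wildtype gave 2 calls with LPS, between 1 and 5 under the alternatives, and 1 without LPS, against 97 with 12 samples and 223 with their block. The interaction gave 0, against 55 and 112 in those fits and 35 without LPS knockout replicate 2. The cause of these changes was not tested, apart from the sample number and block that define each setting. Clec4a2 and Clec10a lay below the 90th percentile of probe sets without a gene, where array signal is least certain.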
